A study of Mus musculus with 4 samples.

Results

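Transcripts of 31 enzymes and cofactors that place, remove or act on lysine acetylation were followed in cultured mouse female germline stem cells (FGSCs). They were taken by gene name, with earlier results of these data known, as 12 lysine acetyltransferases and 19 deacetylases, sirtuins and corepressors, out of 53465 genes in the table. Acetyltransferases transfer an acetyl group from acetyl-CoA to lysines of histones and other proteins, and deacetylases take it off again. The zinc-dependent deacetylases fall into classes I, IIa, IIb and IV, whereas sirtuins consume NAD. Many class I enzymes work inside corepressor complexes, and NCOR1 is the scaffold that binds and activates HDAC3.

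The study compared FGSCs infected with lentivirus carrying a control shRNA (shNC) with FGSCs carrying an shRNA against *Nat10* (shNAT10), whose product is the RNA cytidine acetyltransferase that makes ac4C. Each group held 2 libraries, and the labels name ovary as the tissue and germ stem cells as the cell type. Infected cells were drug-selected, so both groups carried a vector. A figure legend calls the libraries of a group biological replicates, and the labels do not say whether they came from separate infections. The p-values measure only the spread between these libraries.

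Depth was read from the deposited FPKM (fragments per kilobase of gene per mega, M, of fragments), which could be turned back into whole fragments with annotated exon lengths. The divisors so recovered were 11.7 and 11.9 M in shNC and 12.6 and 15.3 M in shNAT10, which differ from the fragments on genes. The shNC libraries held 14.9 and 13.0 M fragments on genes, and the shNAT10 libraries 11.1 and 13.8 M. Loci that collect rRNA-like reads took 48.3% and 38.5% of them in shNC and 26.8% and 28.7% in shNAT10, so this share was lower in both shNAT10 libraries. Its part in the results was not tested. The members held 12076, 12101, 11692 and 14787 fragments in shNC-1 to shNAT10-2. Single members ranged from 4 fragments in a library to 3236.

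*Nat10*, the target of the shRNA, had 7.79 and 5.42 FPKM in shNC against 2.95 and 3.04 FPKM in shNAT10. The groups did not overlap, and the spread was wider within shNC than within shNAT10. *Nat10* fell by 53.0% (log2 fold change -1.09, standard error 0.21), with p = 0.00411 in limma, adjusted p = 0.123 over 20116 genes and exact permutation p = 0.333, two-sided, the smallest value that 2 libraries against 2 allow. By limma-voom the adjusted p was 1.65e-05. Leaving out single libraries gave log2 fold changes from -1.35 to -0.83, and the threshold used below was not passed without shNAT10 replicate 1 (-1.07) or replicate 2 (-1.11). With the same FPKM total over all genes, a scaling described below, *Nat10* was at -0.51 and not called.

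The study lists 3 target sequences for *Nat10* and does not say which was used in these libraries, and they are shown because they define the perturbation. Each matched *Nat10* alone among the transcripts of GENCODE M21 and lies in its coding sequence, on chromosome 2 (minus strand, GRCm38). Target 1 is in exon 18 at chr2:103731978-103731998, target 2 in exon 4 at chr2:103754169-103754189 and target 3 in exon 14 at chr2:103734449-103734469. The sequences run 5′ to 3′.
Nat10 target 1: ttgctgttcacccagattatc
Nat10 target 2: agagtgggaccttgaacttaa
Nat10 target 3: gcagtggagaagtggcttaat

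The labelled cell type was compared with marker genes. Of 10 germline markers, *Dazl*, *Pou5f1*, *Dppa3*, *Figla* and *Zp3* were listed at 0 in all 4 libraries, and the most abundant was *Ifitm3*, an interferon-induced membrane protein gene that the study used as a germline marker (Fragilis), with 9.29 and 22.2 FPKM in shNC against 27.1 and 33.6 FPKM in shNAT10. Leukocyte and mast cell markers had larger sums, to which a few genes in each list gave the most. All 8 leukocyte markers were above 0 in every library, with means from 5.32 FPKM for *Spi1* to 154 FPKM. The 8 leukocyte markers summed to 479 and 528 FPKM in shNC against 395 and 415 FPKM in shNAT10, and *Cd53* had the highest mean over the 4 libraries (154 FPKM), although *Coro1a*, named after its values were seen, stood above it in both shNAT10 libraries. The 12 mast cell markers summed to 423 and 423 FPKM in shNC against 476 and 480 FPKM in shNAT10. *Cpa3*, a mast cell carboxypeptidase gene, led them at 245 to 272 FPKM. *Il1rl1*, *Gata2*, *Kit* and *Mitf*, named after their values were seen, averaged 123, 35.9, 18.9 and 8.01 FPKM. *Ms4a2* and *Cma1*, named likewise, averaged 2.09 and 0.383 FPKM. *Fcer1a* and *Tpsb2* were listed at 0, and *Hdc*, *Tpsab1* and *Mcpt4*, named after their values were seen, averaged under 0.1 FPKM. Among the other germline markers, named after their values were seen, *Prdm1* had 6 fragments in each library, *Gdf9* had 2 to 5, *Nanos3* had 2 fragments in shNC-1 and 2 in shNAT10-2, and *Ddx4* had 2 in shNAT10-1. Apart from *Ifitm3*, the germline markers thus lay at or near 0 at this depth, and whether the libraries match their label was not tested. The study also characterised its cultures by RT-PCR of *Pou5f1* (Oct4), *Ddx4*, *Ifitm3* and *Prdm1* (Blimp1) and by staining for DDX4 and OCT4, which bear on the same label and were not analysed here.

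Markers also differed between the groups. By limma, at the threshold used below, 7.83% of all genes were called lower and 8.41% higher. Of 8 leukocyte markers tested, 4 were called lower and 0 higher. With the same FPKM total over all genes, 25.9% of all genes were called higher and 0.900% lower. Under that scaling 0 leukocyte markers were lower and 1 was higher. Of 7 mast cell markers tested, 3 were called lower and 2 higher, and with that scaling 0 were lower and 3 higher. Of 7 fibroblast markers tested, 3 were called higher and 0 lower, and with that scaling 4 were higher. With single libraries left out, every marker called by limma kept its sign, but not every call was kept. Among leukocyte markers, *Laptm5* ranged from -0.94 to -0.34 on the log2 scale in these fits. Fibroblast markers summed to 54.2 and 47.3 FPKM in shNC against 65.2 and 55.7 FPKM in shNAT10, led by *Dcn*, with *Lum* listed at 0. Granulosa cell markers summed to 3.07 and 2.47 FPKM in shNC against 3.49 and 3.88 FPKM in shNAT10, led by *Inhba*, with *Foxl2* and *Fshr* listed at 0, and 0 of 3 tested were called by limma and 1 higher by limma-voom. Germline markers summed to 9.74 and 22.5 FPKM in shNC against 27.4 and 33.9 FPKM in shNAT10, and 0 of 2 tested were called by limma and 1 (*Ifitm3*) higher by limma-voom. The part of any of these in the results on the members was not tested. In such bulk samples, fewer cells of a type and less RNA per cell cannot be told apart.

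All 31 members passed the filter of a mean FPKM of at least 0.1. *Hdac1*, the class I enzyme of the Sin3, NuRD and CoREST complexes, stood highest, at 28.6 to 32.6 FPKM, above the range of every other member. Its paralogue *Hdac2* followed at 16.9 to 20.3 FPKM, and overlapped with *Ncor1* at 15.9 to 21.3 FPKM. *Kat5*, the TIP60 enzyme, had 14.4 to 15.5 FPKM and *Kat2a*, the GCN5 enzyme of SAGA and ATAC, had 9.997 to 14.2 FPKM. *Hdac3* had 10.9 to 13.4 FPKM. A mean of at least 10 FPKM was reached by 6 members, 17 lay between 1 and 10 FPKM, and 8 lay under 1 FPKM. The lowest were *Hdac9*, a class IIa enzyme, at 0.0652 to 0.190 FPKM and *Hdac11*, the class IV enzyme, at 0.0885 to 0.331 FPKM. Of the 30 neighbouring pairs in the order of mean level, 6 had ranges over the libraries that did not overlap, so most neighbours did not differ beyond their spread.

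**Figure D1:**
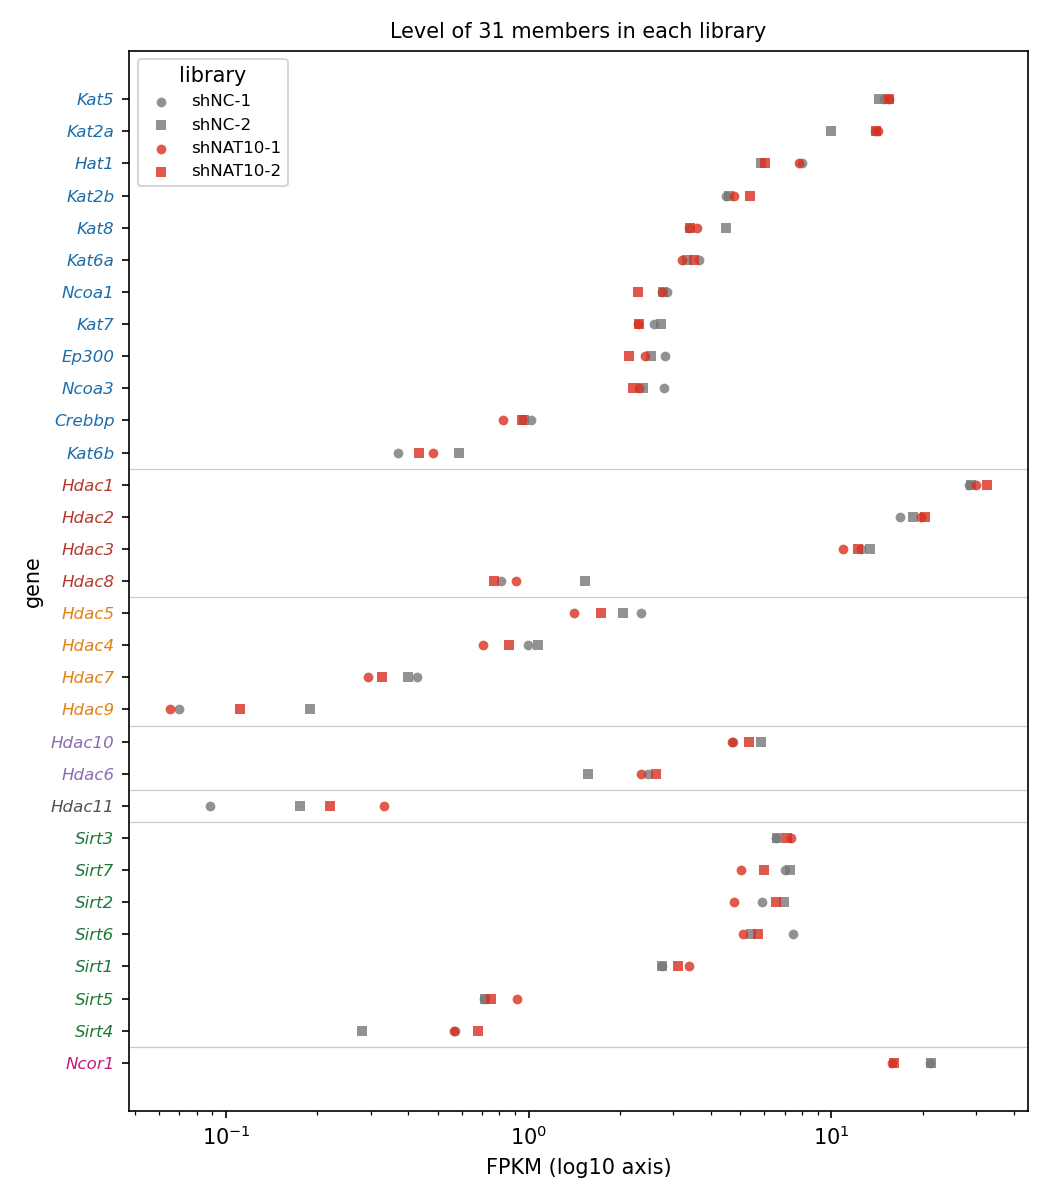
FPKM of the 31 members on a log10 axis, 1 row a gene, with names coloured by role; grey marks are the shNC libraries and red marks the shNAT10 libraries, circles replicate 1 and squares replicate 2. *Hdac1* sits at 28.6 to 32.6 FPKM, and the red marks of *Ncor1* (15.9 and 16.1 FPKM) lie below its grey marks (21.2 and 21.3 FPKM).

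Summed over genes, the 12 acetyltransferases had 60.8 and 54.6 FPKM in shNC against 60.2 and 58.2 FPKM in shNAT10. The 18 deacetylases and sirtuins had 101 and 104 FPKM in shNC against 98.5 and 107 FPKM in shNAT10. The ratio of the second sum to the first was 1.66 and 1.90 in shNC and 1.64 and 1.84 in shNAT10, so the groups overlapped. Class I enzymes made up 58.2% and 60.2% of the deacetylase and sirtuin sum in shNC and 62.5% and 61.6% in shNAT10. Pairs of related genes kept overlapping ratios between the groups. *Hdac1* had 1.69 and 1.56 times the FPKM of *Hdac2* in shNC and 1.51 and 1.60 times in shNAT10. *Ep300*, the p300 gene, had 2.78 and 2.62 times the FPKM of its paralogue *Crebbp* in shNC and 2.95 and 2.25 times in shNAT10.

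The shNAT10 and shNC groups were compared by limma on log2(FPKM + 0.1), two-sided, over 20116 genes. Calls required a fold change above 1.2 together with p no larger than 0.05 before adjustment, the threshold of the study. Of the 31 members, 2 were called lower, *Ncor1* and *Sirt7*, and 0 were called higher. Over all genes tested, 7.83% were called lower and 8.41% higher, so 2 of 31 is near the share over all genes. A p under 0.05 before adjustment was reached by 2 members, against 16.6% of all genes, and 0 members had an adjusted p under 0.05 by limma, against 0.437% of all genes. By limma-voom on the recovered fragments, 4 members were called lower and 0 higher, against 9.34% and 10.1% of all genes, and 1 member, *Ncor1*, was lower at an adjusted p under 0.05, against 3.64% lower and 4.23% higher.

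The sign of 20 members reversed under 1 scaling, chosen after seeing the data, while their place relative to all genes changed less. The deposited FPKM already had equal median ratios between libraries. *Gm23935*, a gene of 57 bases, alone held 72.3% and 66.2% of the FPKM total in shNC and 64.2% and 65.0% in shNAT10. When libraries were instead given the same FPKM total over all genes, an alternative chosen after seeing the data, the median over all genes moved by 0.54, to 0.55. Under that scaling all 31 members were above 0, with 9 called higher and 0 lower, against 25.9% and 0.900% of all genes. These signs follow from a shift common to most genes, since no member lay below -0.54 before it. Relative to the shift, *Ncor1* was at -0.36, *Sirt7* at -0.34 and *Nat10* at -1.06. Scaling to the same FPKM total over protein-coding genes left 20 members below 0 and 11 above, and so did quantile normalization. A total outside the loci that collect rRNA-like reads leaves out *Gm23935*. Under that total 17 members were below 0 and 14 above, with *Ncor1* at -0.34 and *Nat10* at -1.02.

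*Ncor1*, on the minus strand of chromosome 11 from 62316426 to 62458541 (GRCm38), had 21.2 and 21.3 FPKM in shNC against 15.9 and 16.1 FPKM in shNAT10. The libraries of each group lay close together and the groups did not overlap. *Ncor1* fell by 24.6% (log2 fold change -0.41, standard error 0.08, 95% interval -0.63 to -0.19; limma p = 0.00547, adjusted p = 0.134, exact permutation p = 0.333), and under the same FPKM total over all genes it was at 0.18. By limma-voom its adjusted p was 0.00644. When single libraries were left out its log2 fold change stayed between -0.42 and -0.40, and *Ncor1* was called in 4 of 4 such fits. The study shows *Ncor1* among mRNAs screened for reduced binding to *Gm26917* and for a fall in these libraries, so its direction is not independent evidence.

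*Sirt7* encodes a nuclear sirtuin that acts on histone H3 and is enriched in nucleoli. It had 7.01 and 7.28 FPKM in shNC against 5.01 and 5.99 FPKM in shNAT10. The groups did not overlap. *Sirt7* fell by 23.0% (log2 fold change -0.38, standard error 0.13, 95% interval -0.73 to -0.02; limma p = 0.0415, adjusted p = 0.280, exact permutation p = 0.333), and under the same FPKM total over all genes it was at 0.20. The call was lost without shNC replicate 1 (-0.40), without shNC replicate 2 (-0.35) and without shNAT10 replicate 1 (-0.25). It was also lost by limma without the trend and with the same FPKM total outside rRNA-related loci (-0.31). By limma-voom the adjusted p of *Sirt7* was 0.126. Of its exon length, 2.41% is shared with *Mafg* on the same strand, and the division of fragments there is uncertain.

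**Figure D2:**
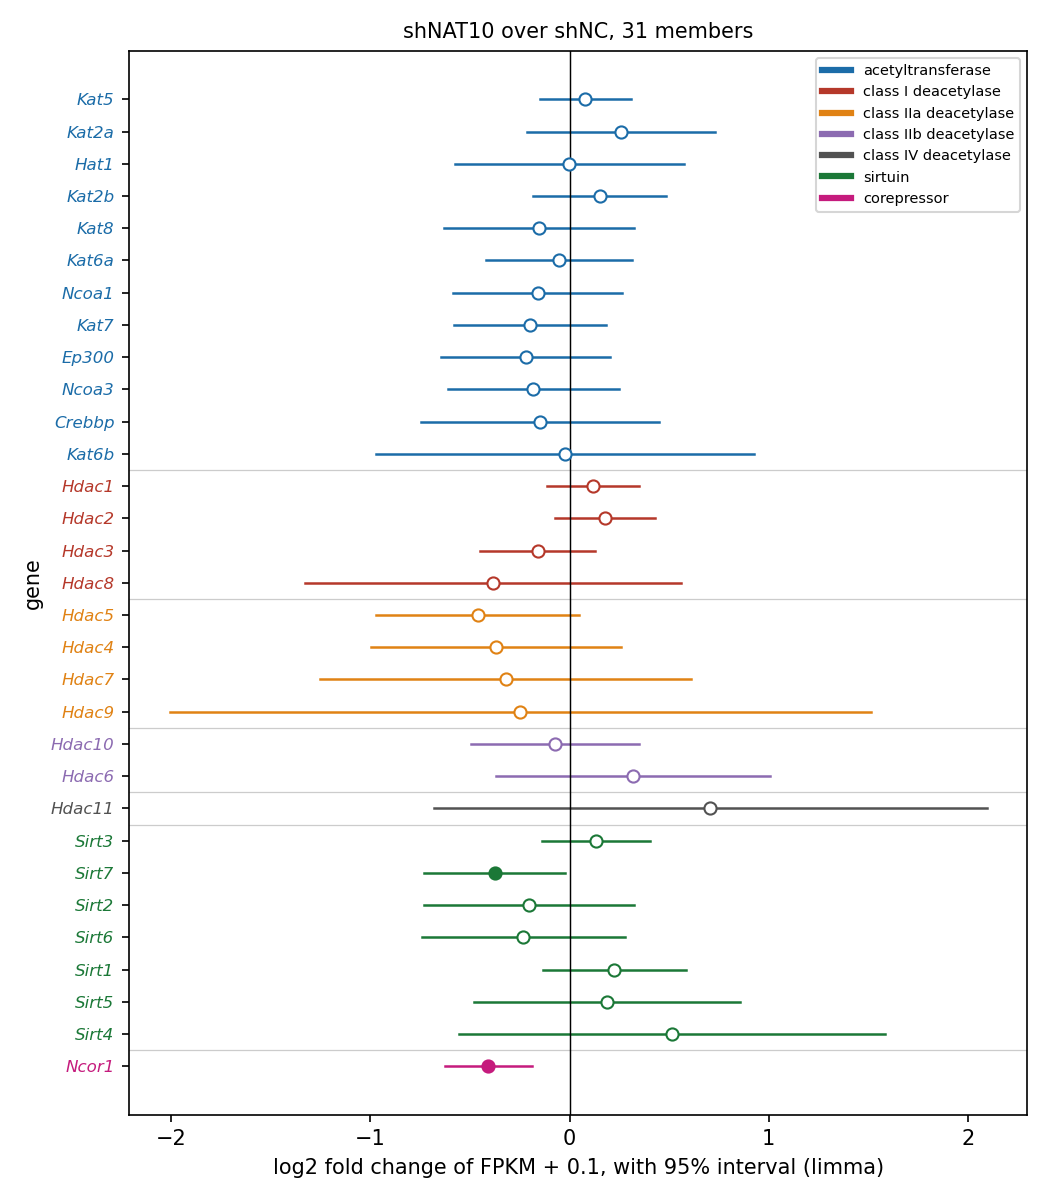
Log2 fold change of shNAT10 over shNC on the log2(FPKM + 0.1) scale (x axis) for the 31 members (y axis), coloured by role; points are limma estimates, bars their 95% intervals, and filled points passed the threshold. Filled points are *Ncor1* (-0.41) and *Sirt7* (-0.38), and 29 of 31 intervals include 0; with the same FPKM total over all genes every member was above 0.

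Among the acetyltransferases 0 of 12 were called by limma and 0 by limma-voom, with log2 fold changes from -0.22 for *Ep300* to 0.26 for *Kat2a*. Their median was -0.10, against 0.01 for all genes tested, and 9 of the 12 were below 0; with the same FPKM total over all genes the median was 0.43, against 0.55 for all genes, or -0.11 relative to the shift. *Kat2a* had 13.9 and 9.997 FPKM in shNC against 14.2 and 14.0 FPKM in shNAT10. The shNC-2 library stood apart from the other 3 libraries. Without shNC replicate 1 *Kat2a* was called higher (log2 fold change 0.49), whereas with all libraries it was not (adjusted p = 0.551 by limma). *Hat1*, which acetylates new histone H4, had 8.02 and 5.84 FPKM in shNC against 7.78 and 6.01 FPKM in shNAT10, and both groups spanned nearly the same range. The p160 coactivator genes *Ncoa1* and *Ncoa3* had log2 fold changes of -0.16 and -0.18. The MYST family genes *Kat5*, *Kat6a*, *Kat6b*, *Kat7* and *Kat8* had 0.08, -0.05, -0.02, -0.20 and -0.15.

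The 19 deacetylases, sirtuins and the corepressor had a median log2 fold change of -0.16, ranging from -0.46 for *Hdac5* to 0.71 for *Hdac11*; with the same FPKM total over all genes the median was 0.42, or -0.12 relative to the shift. It was 0.0393 without shNC replicate 2 and 0.0159 without shNAT10 replicate 1, so libraries of both groups decide its sign. Class I had 0 of 4 called. *Hdac1* and *Hdac2* had log2 fold changes of 0.12 and 0.18, and *Hdac3* had -0.16. *Hdac8* had 0.809 and 1.53 FPKM in shNC against 0.906 and 0.768 FPKM in shNAT10. Its shNC-2 library was the high one, and the groups overlapped.

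Class IIa deacetylases shuttle between cytoplasm and nucleus and bind MEF2 factors. All 4 had a log2 fold change below 0, with a median of -0.35, and 0 were called; with the same FPKM total over all genes all 4 were above 0, and *Hdac9* was also above 0 without shNC replicate 2. *Hdac5* had 2.36 and 2.05 FPKM in shNC against 1.42 and 1.74 FPKM in shNAT10. The groups did not overlap (log2 fold change -0.46, standard error 0.19; limma p = 0.0673, adjusted p = 0.338, exact permutation p = 0.333). *Hdac4* had 0.996 and 1.08 FPKM in shNC against 0.705 and 0.858 FPKM in shNAT10, also without overlap (-0.37, limma adjusted p = 0.522). By limma-voom both passed the threshold, with adjusted p = 0.108 for *Hdac5* and adjusted p = 0.212 for *Hdac4*. Of the exon length of *Hdac4*, 22.4% is shared with *Gm26720* on the opposite strand, and *Gm26720* had 0.481 and 0.524 FPKM in shNC against 0.180 and 0.277 FPKM in shNAT10. The labels name a directional library kit, but strand use in counting was not given in the sources used here, so the division of fragments between the genes is uncertain. *Hdac7* had 0.429 and 0.399 FPKM in shNC against 0.295 and 0.328 FPKM in shNAT10, with 25 to 34 fragments a library.

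The other zinc-dependent enzymes were not called. *Hdac6*, a cytoplasmic tubulin deacetylase gene, had 2.47 and 1.56 FPKM in shNC against 2.34 and 2.62 FPKM in shNAT10. The shNC-2 library was the low one. *Hdac10*, a polyamine deacetylase gene, had a log2 fold change of -0.07. *Hdac11* rested on 4, 8, 16 and 13 fragments in the 2 shNC and then the 2 shNAT10 libraries, and 15.4% of its exon length is shared with *Gm44002* on the opposite strand. Its 95% interval, from -0.68 to 2.09, is too wide for a direction at this depth.

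Of the 7 sirtuins, *Sirt7* alone was called, and their median log2 fold change was 0.13. *Sirt1*, the nuclear NAD-dependent deacetylase gene, had 2.76 and 2.77 FPKM in shNC against 3.38 and 3.12 FPKM in shNAT10. The groups did not overlap, but the log2 fold change of 0.22 was not past the threshold (limma p = 0.166, adjusted p = 0.498, exact permutation p = 0.333). The mitochondrial sirtuin genes *Sirt3*, *Sirt4* and *Sirt5* had log2 fold changes of 0.13, 0.51 and 0.19. When single libraries were left out *Sirt4* ranged from 0.11 to 0.92 and *Sirt5* from 0.058 to 0.32. *Sirt4* had 8 to 25 fragments a library. *Sirt2* and *Sirt6* had -0.20 and -0.23, and the groups overlapped for both genes. With the same FPKM total over all genes both were above 0. Leaving out single libraries moved *Sirt2* between -0.43 and 0.0266 and *Sirt6* between -0.46 and -0.0022.

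Counting members whose groups did not overlap, 9 were higher and 11 lower in shNAT10. Over all genes tested the shares were 23.9% higher and 24.1% lower. For 13 of the 31 members the distance between the shNC libraries was larger than the fold change between groups. The share over all genes was not computed for this count. Shared exon length also leaves the levels of other members uncertain. *Kat5* shares 12.1% with *Rnaseh2c* on the opposite strand, which was called higher (0.40 by limma). *Sirt3* shares 6.998% with *Ric8a* and 5.73% with *Psmd13*, and *Kat8* 4.22% with *Prss8*, all on the opposite strand. For 25 members the 95% interval lay wholly within a log2 fold change of 1 in either direction.

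Partners of the members were read from 15 lists of complexes, readers and cofactor supply, of which 183 different genes were tested, *Hat1* among them. Of these, 7 were called higher and 5 lower by limma, against 8.41% and 7.83% of all genes, and their median log2 fold change was -0.00. By limma-voom 14 were higher and 18 lower, against 10.1% and 9.34% of all genes. With the same FPKM total over all genes 55 were higher and 0 lower, against 25.9% and 0.900% of all genes. By limma without the trend 6 were higher and 0 lower, against 7.64% and 6.04% of all genes. Requiring an adjusted p under 0.05 kept 7 higher and 2 lower partners by limma-voom, against 4.23% and 3.64% of all genes, and 0 partners by limma. None (0 of 4) of the NCoR/SMRT subunits that join NCOR1 was called by limma. Likewise 0 were called of 15 Sin3, 10 CoREST and MiDAC, 24 SAGA and ATAC, 16 TIP60 and 9 MYST scaffold subunits. The same held for 6 p160 and CBP/p300 partners, 11 acetyl-CoA supply genes and 15 class IIa deacetylase partners. By limma-voom 0 were called in the NCoR/SMRT and the CoREST and MiDAC lists, and among the others lower genes numbered 2 for Sin3, 3 for SAGA and ATAC, 3 for TIP60, 1 for MYST scaffolds and 1 for p160 and CBP/p300 partners. The acetyl-CoA and class IIa partner lists had 1 higher gene each by limma-voom. In the lists with limma calls described next, limma-voom called 1 higher and 2 lower for NuRD, 3 and 1 for HAT1 and histone H4 chaperones, and 3 and 2 for acetyl-lysine readers. It called 1 higher and 2 lower for MSL and NSL, 2 and 1 for NAD supply and use, and 2 and 2 for other corepressors.

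Of 12 NuRD subunits, 2 were called lower, against 7.83% of all genes, and both are chromatin remodelling ATPases. *Chd3* had 12.3 and 9.95 FPKM in shNC against 7.77 and 7.98 FPKM in shNAT10 (-0.48, limma adjusted p = 0.214). *Chd4* had 5.71 and 5.12 FPKM in shNC against 4.26 and 3.66 FPKM in shNAT10 (-0.44, limma adjusted p = 0.250). The groups did not overlap for either gene, and both were above 0 with the same FPKM total over all genes. With single libraries left out the log2 fold change ranged from -0.63 to -0.33 for *Chd3* and from -0.55 to -0.34 for *Chd4*. The call of *Chd3* was lost in some of these fits and that of *Chd4* in all of them. Both calls were also lost by limma without the trend, which leaves the fold changes as they were. By limma-voom the adjusted p was 0.0107 for *Chd3* and 0.0426 for *Chd4*. Of 8 HAT1 and histone H4 chaperone genes, 2 were called higher, against 8.41% of all genes. *Asf1b*, a chaperone gene of histones H3 and H4, had 19.0 and 19.3 FPKM in shNC against 25.9 and 28.2 FPKM in shNAT10 (0.49, limma adjusted p = 0.120). *Chaf1b*, a subunit gene of chromatin assembly factor 1, was at 0.61 (limma adjusted p = 0.181). By limma-voom the adjusted p was 0.0128 for *Asf1b* and 0.00708 for *Chaf1b*. Of the 4 fits with a library left out, *Asf1b* was called in 4 and *Chaf1b* in 2.

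Of 20 acetyl-lysine readers, 2 were called higher and 1 lower. For this list and those below, 8.41% of all genes were called higher and 7.83% lower. *Atad2* and *Mllt1* had log2 fold changes of 0.49 and 0.43 (limma-voom adjusted p = 0.00534 and 0.0329). The BET gene *Brd2* had -0.30 (limma-voom adjusted p = 0.0659), or 0.29 with the same FPKM total over all genes. Of the 4 fits with a library left out, *Mllt1* was called in 3, *Atad2* in 2 and *Brd2* in 1. Of 10 MSL and NSL subunits, *Ogt*, the O-GlcNAc transferase gene, was called higher (0.38, limma-voom adjusted p = 0.0157). *Msl3* was called lower (-0.29, limma-voom adjusted p = 0.183, or 0.30 with that scaling). *Ogt* was called in 2 of 4 such fits and *Msl3* in 4 of 4. Of 12 genes of NAD supply and use, 1 was called in each direction. *Nampt*, the rate-limiting enzyme of NAD salvage, had 26.8 and 29.5 FPKM in shNC against 22.3 and 22.7 FPKM in shNAT10 (-0.32, limma adjusted p = 0.215, or 0.26 with that scaling). *Nmnat2*, at a mean of 0.843 FPKM under the level set for named genes, was called higher (0.66) and was chosen for naming after its values were seen. In fits with a library left out *Nampt* ranged from -0.39 to -0.25 and *Nmnat2* from 0.60 to 0.73. The call of *Nampt* was lost in most of these fits and that of *Nmnat2* in all of them. Of 16 other corepressors, *Nab1* was called higher (0.39; adjusted p = 0.165 by limma), also in 4 of 4 fits with a library left out.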

How the data were processed

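Long RNA-seq libraries of shNC and shNAT10 FGSCs, 2 per group, were grouped by the labels. The authors deposited FPKM for each gene; per the labels and methods, reads were trimmed with cutadapt and aligned with HISAT2 to mm10, with versions, counter and annotation not given in the sources used here. The methods describe rRNA depletion and the labels mRNA isolation. A second table, with the authors' log2 fold changes, p-values and adjusted p-values, was not used. Value columns left unmapped numbered 0.

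Genes averaging 0.1 FPKM or more were tested on log2(FPKM + 0.1), a scale that understates changes of low genes, with limma 3.58.1 (R 4.3.3; lmFit, eBayes with trend, two-sided, no covariate), called at a fold change above 1.2 with p no larger than 0.05, with Benjamini-Hochberg adjustment beside it. The test was run on simulated data with changes larger than those of the called members, which does not bear on changes of their size. Exon lengths of GENCODE M21 (GRCm38) and the step of each library gave fragments; 96.3% of values under 50 fragments lay within 0.02 of a whole number. Fragments set the precision, cover counting error only and entered limma-voom. Named were all members and *Nat10*, from each partner list the called genes averaging 1 FPKM or more (at most 3), and from each cell type list the most abundant gene and those at 0. Others were named after their values were seen. Alternatives were other pseudocounts, filters, scalings and variance models, the replicate block, each library left out, and limma-voom. Members and lists were chosen with earlier results of these data known. Summaries and figures used pandas 2.3.3, matplotlib 3.10.9, scipy 1.17.1 and numpy 2.4.6 under Python 3.11.15.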

Additional observations from a re-analysis of the deposited data

How the results depend on the processing

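Log2 fold changes of the members were recomputed in 16 other ways. In 1 of these, the same FPKM total over all genes, chosen after seeing the data, 2 values kept their direction and side of the threshold, 9 gained the call and 20 changed sign, which follows from the shift of the median over all genes by 0.54 and is not particular to the members. In the others, leaving out libraries aside, 326 values kept both, 2 lost the call, 2 gained it and 3 changed sign. With each library left out in turn, 108 kept both, 3 lost the call, 1 gained it and 12 changed sign. *Ncor1* was called lower in 15 of the 16, and not with the same FPKM total over all genes. Rescaling by median ratios changed nothing by construction, since the deposited values already had equal ratios.

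With the same FPKM total outside rRNA-related loci, 1 member was lower, and partners numbered 14 higher and 2 lower. Over all genes 10.6% were called higher and 5.75% lower at this setting. The median log2 fold change of acetyltransferases was -0.0363, and *Kat6a* (0.0138), *Kat6b* (0.0327) and *Hat1* (0.0669) changed sign. Limma without the trend gave 1 member and 0 partners lower, against 6.04% of all genes. Limma-voom gave 4 members lower, and 14 partners higher and 18 lower, against 10.1% higher and 9.34% lower of all genes. The causes were not tested.

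With the same FPKM total over all genes, 9 members were higher and 0 lower, 55 partners higher and 0 lower, and 5211 of all genes higher and 181 lower (96.6% of calls higher). The acetyltransferase median was 0.43, that of the other members 0.42, and *Nat10* was at -0.51, no longer called. Members that changed sign were *Kat6a* (0.52), *Kat6b* (0.45), *Kat7* (0.37), *Kat8* (0.42), *Ep300* (0.34), *Crebbp* (0.38), *Hat1* (0.58), *Ncoa1* (0.41), *Ncoa3* (0.38), *Hdac3* (0.42), *Hdac8* (0.14), *Hdac4* (0.16), *Hdac5* (0.10), *Hdac7* (0.14), *Hdac9* (0.0133), *Hdac10* (0.50), *Sirt2* (0.38), *Sirt6* (0.35), *Sirt7* (0.20) and *Ncor1* (0.18). Other called genes that did included *Msl3* (0.30), *Nampt* (0.26), *Chd3* (0.10), *Chd4* (0.13), *Brd2* (0.29) and *Sat1* (0.21). Called markers that did were *Cd53* (0.00601), *Lcp1* (0.21), *Itgb2* (0.0728), *Gata2* (0.25) and *Mitf* (0.19).

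With each library left out in turn, where the lone library of a group is assumed to vary like the others, 0 to 1 members were higher and 1 to 2 lower, and partners ranged from 2 to 12 higher and from 1 to 11 lower. The shares of all genes called higher and lower also differed between these fits. Whether the ranges of these counts are particular to the members or partners was not tested. The acetyltransferase median ranged from -0.14 to -0.08, that of the other members from -0.24 to 0.0393 and *Nat10* from -1.35 to -0.83. Ranges that crossed 0 were -0.12 to 0.0123 for *Kat6a*, -0.30 to 0.25 for *Kat6b*, -0.35 to 0.0436 for *Kat8*, -0.23 to 0.23 for *Hat1*, -0.80 to 0.0393 for *Hdac8*, -0.63 to 0.14 for *Hdac9*, -0.22 to 0.0764 for *Hdac10* and -0.43 to 0.0266 for *Sirt2*.

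Deviations of same-numbered libraries from the group means correlated at 0.0071 across 20116 genes, which are not independent. With 2 libraries per group this cannot show whether the libraries were paired. With the replicate block, 2 members were lower and 0 higher, and 7 partners were higher and 6 lower. Over all genes 7.89% were higher and 7.59% lower with the block. The medians were -0.10 and -0.16, and *Nat10* was at -1.09. Depth limits *Hdac11* and *Sirt4*, the 2 members with fewer than 10 fragments in a library.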

Other observations

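Further acetyltransferases, outside the members, were listed after seeing the data, and the genes named here were chosen after their values were seen. Of 11 tested subunits of N-terminal acetyltransferases 0 were called by limma, 1 of them with a p under 0.05, and 1 was called higher by limma-voom. *Naa25* had 12.5 and 13.5 FPKM in shNC against 15.5 and 15.6 FPKM in shNAT10, a difference of 19.7%, under the threshold (adjusted p = 0.284 by limma). Of 12 other acetyltransferases and partners tested, 2 were called higher (*Esco2* and *Mcm3ap*) and 1 lower (*Sat1*) by limma, against 8.41% and 7.83% of all genes, and 2 higher and 1 lower by limma-voom, against 10.1% and 9.34%. With the same FPKM total over all genes 5 were higher and 0 lower, against 25.9% and 0.900% of all genes. *Thumpd1*, the tRNA-binding partner of NAT10 in ac4C formation, had 30.3 and 32.6 FPKM in shNC against 31.5 and 32.5 FPKM in shNAT10, and the groups overlapped. *Sat1*, the polyamine acetyltransferase gene, had 37.4 and 39.9 FPKM in shNC against 29.5 and 29.9 FPKM in shNAT10 (-0.38 on the log2 scale, limma adjusted p = 0.152, or 0.21 with the same FPKM total over all genes), and was called in 4 of 4 fits with a library left out. *Esco2*, the cohesin acetyltransferase gene, had 1.58 and 1.23 FPKM in shNC against 3.28 and 2.32 FPKM in shNAT10 (0.94 on the log2 scale, limma adjusted p = 0.201). With a library left out *Esco2* ranged from 0.69 to 1.18 and was called in 0 of 4 fits, and *Mcm3ap* in 1 of 4.

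Across the 31 members the log2 fold change and exon length had a Spearman's rho of -0.40, against 0.01 across 12828 protein-coding genes tested. This relation was noticed after the values were seen. Genes are not independent replicates, and all points share the same 4 libraries.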
